A study of Vernicia fordii with 6 samples.

Results

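MYB proteins are transcription factors that bind DNA through imperfect repeats, each folded as a helix-turn-helix. In plants most of them carry an R2 and an R3 repeat, and they are known for switching on or damping phenylpropanoid and flavonoid synthesis, for shaping epidermal cells, for responses to drought and abscisic acid, and for anther and pollen development. Many act in a complex with a bHLH protein and a WD40 protein, while single-repeat members and members with an added repeat that time the cell cycle work in other ways.

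The family was examined here in the unisexual flowers of tung tree (*Vernicia fordii*), a woody oil plant of the spurge family that bears male and female flowers in one inflorescence. A unigene, that is an assembled transcript, was taken as a member where the SwissProt description of its best match named a MYB transcription factor, a Myb-related protein, a MYB transcription repressor, GAMYB or the maize anthocyanin regulator C1, and this rule chose 70 of 56065 unigenes. No expression value entered the choice. The 70 members matched 25 SwissProt entries, 18 of which were matched by more than 1 member, and 35 members had an Arabidopsis entry as their match. Each member is therefore called by the protein it resembles, and its role is known from that protein's species, not from tung tree. Members ranged from 323 to 5558 bases in length with a median of 843.5 bases, against a median of 682 bases over all unigenes. The 70 members had 66 different best matches in the broader NCBI protein set. Several members with one SwissProt match may still be pieces or copies of one gene whose reads cannot be told apart.

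The RNA came from 3 male and 3 female samples of flower buds of the cultivar "Duisuitong", all at stage 7 and from 4-year-old trees. The study defined this stage by form, as the first at which the sexes can be told apart: the centre of a male flower stays flat while its stamen primordia grow, and the centre of a female flower bulges into a gynoecium although stamens are also begun. Each sample pooled 30 flowers, and according to the methods male and female buds were picked on one plant, so p-values measure the spread between these pooled samples and not between unrelated trees. The comparison asks which members differ in transcript level between male and female flowers.

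For the transcripts it chose for qRT-PCR, the study reported consistent expression between that assay and its own sequencing calls. The values of that assay were not used here. Among the members, contig_20472, a match of maize C1, was one of those transcripts. The study drew them from its differentially expressed genes, whereas contig_20472 was not called here by edgeR, limma or DESeq2. Its primer pair is printed because it identifies the assembled transcript on which that assay was built, and both primers are copied from the supplementary primer list and written 5′ to 3′ in lower case.
contig_20472 forward primer: acacggtgaaggtaaatgga
contig_20472 reverse primer: tggagcctgataatgagttg

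Male libraries held 14099287 to 16849489 reads assigned to unigenes and female libraries 11467832 to 40385019. Levels are given as TMM-scaled RPKM, that is reads per kilobase of unigene and per unit of sequencing depth, with each library total corrected by edgeR's TMM factor, and differences as log2 of male over female flowers. Female replicate 3 stood apart: 54.9% of its reads fell on 5 unigenes, its corrected total was 3648171 reads, and its profile over all tested unigenes correlated at 0.80 with both other female libraries and at 0.76 to 0.82 with the male ones. Male replicates 1 and 3 were also uneven, with 36.9% and 21.1% of their reads on the same 5 unigenes. That share was 4.46% in male replicate 2, and 3.90% and 1.12% in female replicates 1 and 2. Unigenes named for proteins of mature pollen were higher in male flowers as a sum, although stage 7 was defined on stamen primordia. The list was read from names alone (exopolygalacturonase, pollen-specific, pectinesterase PPME1, profilin and pollen allergen). Of its 31 unigenes 24 were tested and 9 were called higher in male flowers by edgeR, while 4 had a log2 difference below 0. DESeq2 called 12 higher and 1 lower in male flowers. The summed level was 1850 to 2742 TMM-scaled CPM in male libraries, against 433 to 1494 in female libraries. At 0 in all 3 female libraries were 2 pollen allergen matches, contig_36801 and contig_37245. Of the other lists of cell type markers, stamen and petal identity (2 of 2 unigenes tested), tapetum (3 of 4), carpel and ovule (5 of 5) and green tissue (21 of 38) held no unigene called by edgeR, while DESeq2 called 2 green tissue unigenes higher in male flowers. The green tissue unigenes, matches of chlorophyll-binding proteins and the Rubisco small chain, summed to 4030, 1756 and 3718 TMM-scaled CPM in male replicates 1, 2 and 3, against 822, 1198 and 9654 in the female replicates. With female replicate 3 left out, the log2 difference of 21 of 21 was above 0 with a median of 1.66, against 10 of 21 above 0 with all libraries. In that run 18 of the 21 had an unadjusted p under 0.05 in edgeR, as had 11036 of all 37016 unigenes tested. Both DEFICIENS matches, the stamen and petal identity genes, lay higher in every male library than in any female library on the TMM scale.

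Of the 70 members, 52 had enough reads to be tested, among 29327 unigenes tested. A unigene was called where edgeR's quasi-likelihood test gave a Benjamini-Hochberg adjusted p under 0.05 and the log2 difference was at least 1 in size. By that rule 2 members were called higher in male flowers, against a background of 1.56% of all tested unigenes, and 0 were called higher in female flowers, where the background was 0.143%. At an unadjusted p under 0.05 by the same tool there were 4 members higher in male flowers and 2 higher in female flowers (5.75% and 7.42% of all tested unigenes), 6 in all (13.2%). DESeq2 called 4 and 0 members, against 2.51% and 1.5% of the unigenes it tested, and limma on log2(RPKM + 1) called 1 and 0. The share of all unigenes called by limma was not computed. All 3 male libraries lay above all 3 female libraries for 4 members and below them for 2, against 10.4% and 9.06% of all tested unigenes. On the deposited RPKM, which carry no TMM scaling, these counts were 3 and 0, against 3.46% and 1.28%, and in what follows groups are said to overlap or not on the TMM scale. An exact permutation test of 3 against 3 libraries cannot go below p = 0.1, so single values were judged by the fit across all unigenes.

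Members differed in both directions. The log2 difference was above 0 for 31 tested members and below 0 for 21, with a median of 0.06 (also with contig_37111 at its lower bound) beside −0.09 over all tested unigenes, and the median ran from −0.025 to 0.22 with a library left out. A log2 difference of at least 1 in size was found for 19 of the 52 members (36.5%), against 22.4% of all tested unigenes, and 23 members differed by under 0.5. Scaling by library totals alone shifted the median of all unigenes to −0.41 and that of the members to −0.24, so that 18 members lay above 0 and 34 below. Replicates were also less alike for the members than for unigenes in general. The median SD of log2(TMM-scaled RPKM + 0.5) was 0.64 among male and 0.59 among female libraries for the members, against 0.41 and 0.51 over all tested unigenes. Male replicate 1 was the lowest male library for 33 of the 52 tested members, while this held for 40.2% of all tested unigenes.

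**Figure D1:**
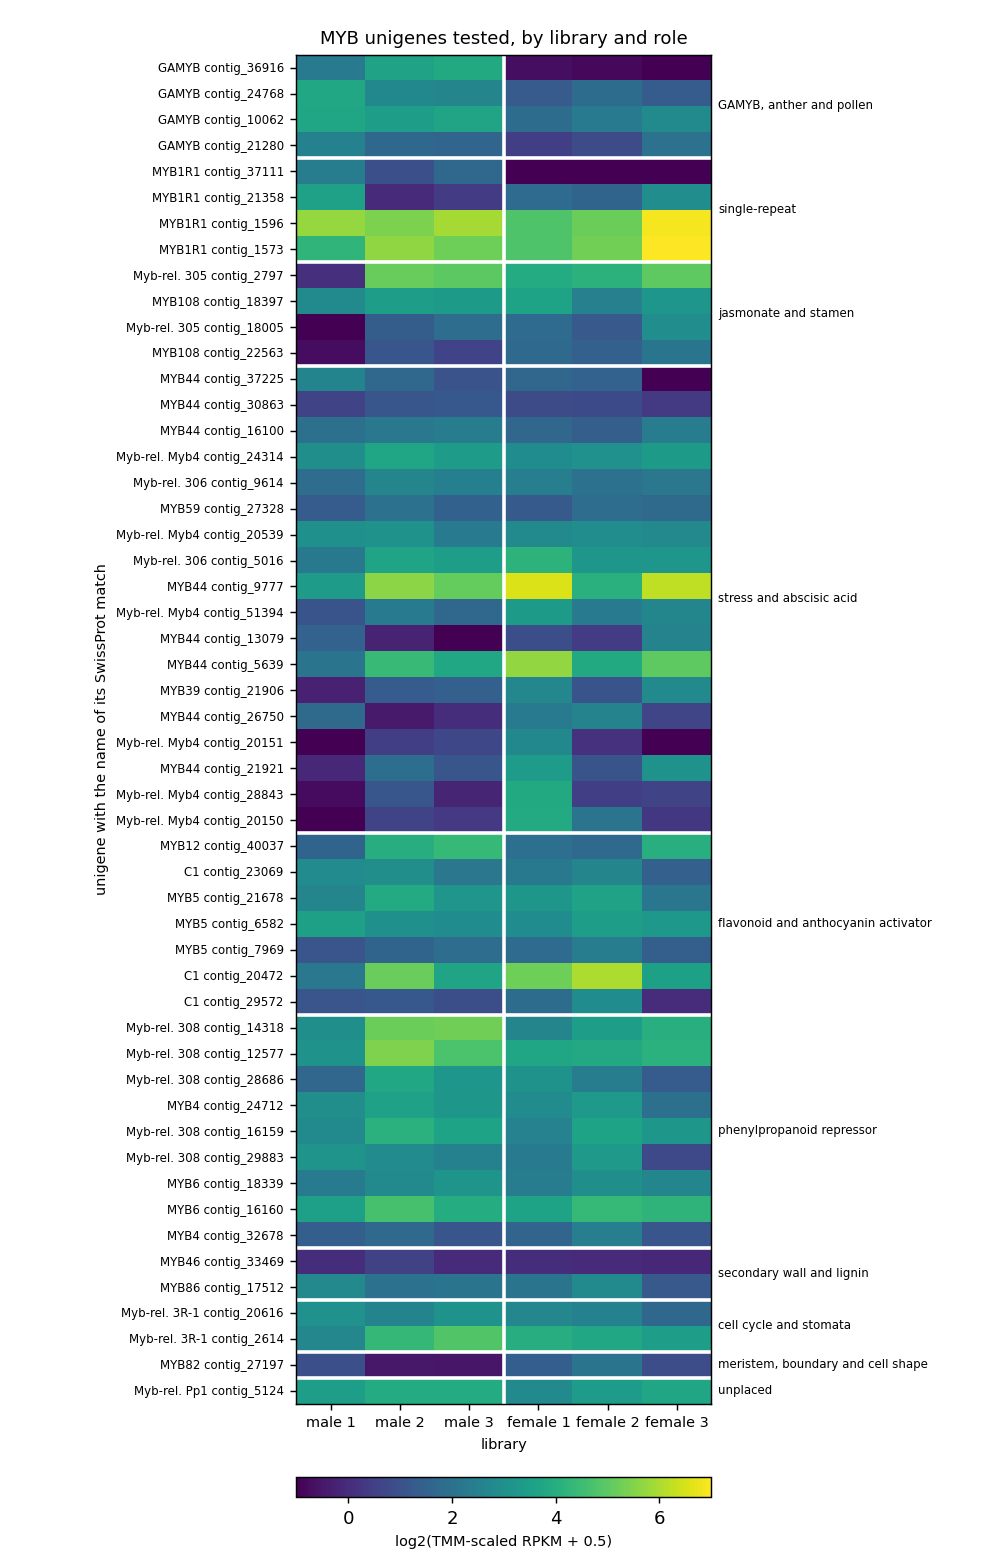
Level of each of the 52 tested MYB unigenes (rows, grouped by the role of the matched protein) in each library (columns, male on the left), as log2(TMM-scaled RPKM + 0.5). Contig_36916 and contig_37111 are dark in all 3 female libraries, and MYB1R1 matches contig_1596 and contig_1573 are brightest in female replicate 3.

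GAMYB was first known in cereals as the gibberellin-induced activator of aleurone genes, and in rice and Arabidopsis GAMYB-type proteins are needed in the anther. The best match of 5 members was rice GAMYB, 4 of them were tested, and all 4 had a log2 difference above 0 under each of the 3 scalings tried. Of these, 1 was called by edgeR and 3 by DESeq2. Contig_36916 was the clearest member of the whole family, although its best match in the broader NCBI protein set was a conserved hypothetical protein of castor bean. It had 4.50, 11.8 and 13.9 TMM-scaled RPKM in male replicates 1, 2 and 3, against 0.112, 0.0638 and 0 in female replicates 1, 2 and 3. The female libraries together held 28 reads of it and the male libraries 1262. The level averaged 10.1 ± 4.93 in male and 0.0586 ± 0.0562 TMM-scaled RPKM in female flowers (SD, n = 3 each). It was thus 124-fold higher in male flowers, a log2 difference of 6.96 with a standard error of 0.71 and an adjusted p of 0.00222 (edgeR quasi-likelihood, Benjamini-Hochberg). The call was kept without any 1 of the 6 libraries and in every other setting tried. Because each sample is a pool of whole buds, more cells of a type and more RNA per cell cannot be told apart here or in the results that follow. The mature pollen list moved in the same direction, with the sums given above, and its part in this difference was not tested.

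The other GAMYB matches were present in both sexes. Contig_10062 had 12.5, 10.6 and 12.3 TMM-scaled RPKM in male replicates 1, 2 and 3, against 3.09, 4.42 and 6.42 in the female replicates. Every male library lay above every female library, but the log2 difference of 1.37 (SE 0.35) had an adjusted p of 0.152 in edgeR's quasi-likelihood test and was not called. Without female replicate 3 it was called, with an adjusted p of 0.0358 by the same edgeR test, and the adjusted p over all settings ran from 0.0315 in DESeq2 to 0.999992 on library totals. Contig_24768 shares its best protein match in the broader NCBI set, a castor bean MYB, with contig_10062, so the pair may report 1 gene. Its level was 13.04, 6.15 and 5.70 TMM-scaled RPKM in male libraries and 1.97, 3.09 and 2.01 in female libraries. The groups did not overlap on this scale but did on the deposited RPKM, and the log2 difference was 1.78 (SE 0.50) with an adjusted p of 0.191 in edgeR's quasi-likelihood test. Contig_21280 had 5.26, 2.69 and 2.56 TMM-scaled RPKM in male libraries and 0.897, 1.27 and 3.56 in female libraries, where female replicate 3 overlapped the male range. Its log2 difference was 0.96 (SE 0.60). The last GAMYB match, contig_41503, had 11 reads in male and 0 in female libraries and was too sparse to test. ABORTED MICROSPORES, a bHLH regulator of the Arabidopsis tapetum and the 1 tapetum marker whose groups did not overlap, had 24.6, 15.8 and 16.3 TMM-scaled RPKM (contig_5630) in male libraries and 7.01, 8.05 and 12.04 in female libraries, and it was not called (edgeR quasi-likelihood adjusted p = 0.262). The other tested tapetum markers had log2 differences below 0, down to −0.53, and the list median was −0.45, or 1.25 without female replicate 3.

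**Figure D2:**
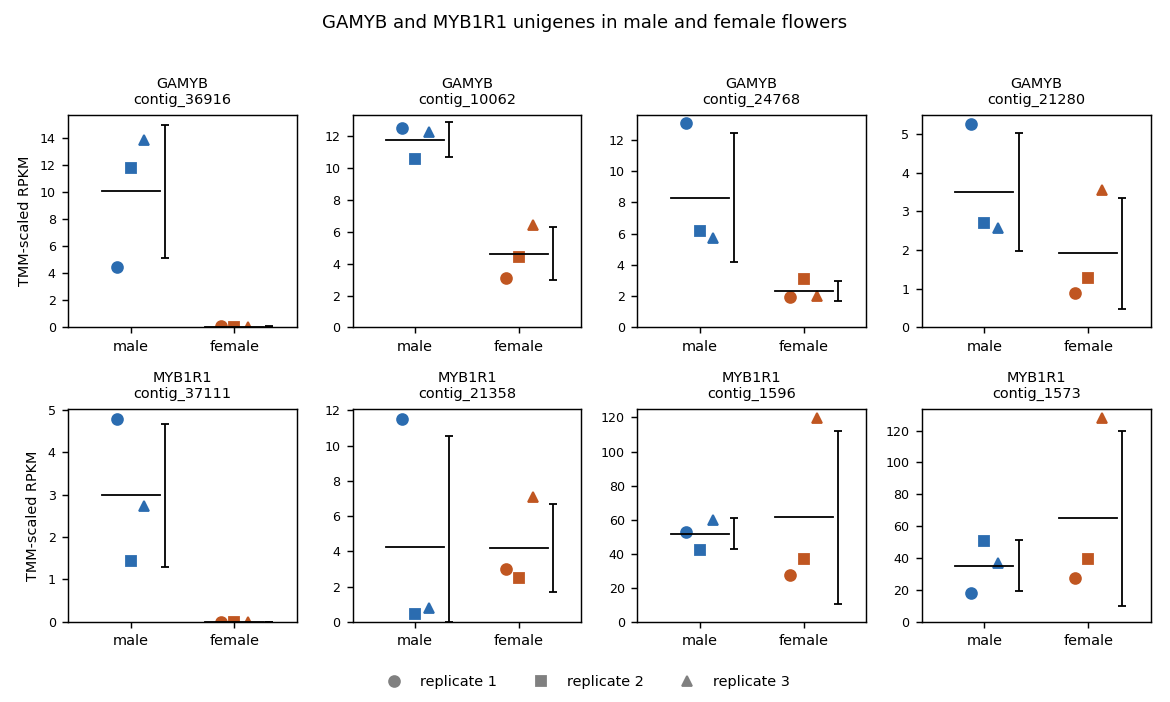
TMM-scaled RPKM of the 4 tested GAMYB matches (top) and 4 MYB1R1 matches (bottom) in each library, male on the left; the line is the mean, the bar the SD (n = 3, stopped at 0), and the symbol the replicate number. Contig_36916 and contig_37111 lie near or at 0 in female flowers, whereas contig_1596 and contig_1573 peak in female replicate 3 at 119.6 and 127.8.

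MYB1R1 of potato is a single-repeat MYB tied to drought tolerance, and it was the match of 4 members, all tested. These members included the other call and, in contig_1596 and contig_1573, 2 of the 3 most abundant transcripts of the family by mean deposited RPKM, after the MYB44 match contig_9777. The best match of contig_37111 in the broader NCBI protein set was likewise a conserved hypothetical protein of castor bean. Contig_37111 had 4.79, 1.43 and 2.73 TMM-scaled RPKM in male replicates 1, 2 and 3, against 0 in each female library. It had 126 reads over the male libraries and none over the female ones, which puts it at least 119.7-fold higher in male flowers when 3 reads over the female group are taken as the floor. The adjusted p was 0.0181 (edgeR quasi-likelihood, Benjamini-Hochberg). This call depended on the libraries: the adjusted p of the same edgeR test was 0.0649 when male replicate 3 was left out, 0.0577 when female replicate 1 was, and 0.0717 when female replicate 2 was, and over all settings it ran from 1.74e-08 to 0.0717. The mature pollen list again moved in the same direction, and its part was not tested.

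The remaining MYB1R1 matches did not separate the sexes. Contig_1596 had 52.9, 42.1 and 60.0 TMM-scaled RPKM in male libraries and 27.4, 36.7 and 119.6 in female libraries. Contig_1573 had 18.4, 50.4 and 36.9 in male libraries and 27.5, 39.3 and 127.8 in female libraries on the same scale. For both of them female replicate 3 was the highest library of all 6 and the other female libraries were among or below the male ones. The log2 differences of −0.24 (SE 0.56) and −0.87 (SE 0.63) turned to 0.83 and 0.23 without female replicate 3. The green tissue markers were also highest in female replicate 3, with the sums given above, and their part in these levels was not tested. Contig_21358 was high in male replicate 1 alone among male libraries, with 11.5, 0.464 and 0.799 TMM-scaled RPKM, against 3.002, 2.48 and 7.07 in female libraries, and its log2 difference was 0.07 (SE 1.12).

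MYB108 acts with jasmonate in the maturing stamens of Arabidopsis, and Myb-related protein 305 of snapdragon (*Antirrhinum*) is a flower regulator of phenylpropanoid genes. These names covered 6 members, 4 of them tested and none called by edgeR, limma or DESeq2. Contig_2797, a match of protein 305, had 0.551, 34.5 and 31.0 TMM-scaled RPKM in male replicates 1, 2 and 3, against 14.7, 17.0 and 31.8 in the female replicates. Male replicates 2 and 3 were thus near the top of the female range while male replicate 1 was far under it, and the log2 difference was 0.06 (SE 1.07). Without male replicate 1 the log2 difference was 0.75, and its sign changed between settings. Contig_22563, a match of MYB108, had 0.101, 1.72 and 1.03 TMM-scaled RPKM in male libraries and 2.79, 2.25 and 3.80 in female libraries. Every male library lay below every female one on this scale, though not on the deposited RPKM, and the log2 difference of −1.54 (SE 0.78) had an adjusted p of 0.452 in edgeR's quasi-likelihood test. The more abundant MYB108 match, contig_18397, overlapped fully, with 6.40, 10.5 and 9.69 TMM-scaled RPKM in male and 11.9, 5.09 and 8.78 in female libraries. Among 40 unigenes for jasmonate synthesis and signalling 31 were tested and 0 called by edgeR's quasi-likelihood test, with 1 higher and 5 lower in male flowers at an unadjusted p under 0.05. DESeq2 called 3 of these unigenes lower in male flowers, and limma on log2(RPKM + 1) called 1.

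The stress and abscisic acid names formed the largest class, with 24 members and 18 tested. None was called by edgeR, limma or DESeq2, and 1 had an unadjusted p under 0.05 in edgeR's quasi-likelihood test, against 4 in DESeq2. The log2 difference was above 0 for 7 and below 0 for 11, with a median of −1.10. With a library left out this median ran from −0.36 without female replicate 1 to −1.37 without female replicate 2. It was −0.68 without female replicate 3. MYB44, which promotes stomatal closure in Arabidopsis under abscisic acid, was the match of 10 members, and 8 of them were tested with a median log2 difference of −1.16. For these, leaving out female replicate 1, 2 or 3 gave medians of −0.71, −1.38 and −0.68. Contig_9777, the most abundant of these, had 10.2, 48.4 and 34.3 TMM-scaled RPKM in male replicates 1, 2 and 3, against 94.5, 16.5 and 75.5 in the female replicates. Contig_5639 had 3.68, 20.7 and 13.5 in male libraries and 51.2, 14.1 and 31.8 in female libraries on the same scale. Contig_21921 had 0.423, 3.18 and 1.70 in male libraries and 10.1, 1.63 and 7.98 in female libraries. All 3 were high in female replicates 1 and 3, low in female replicate 2, which fell within the male range, and lowest in male replicate 1. Their log2 levels correlated at 0.94 to 0.97 (Pearson's r) over the 6 libraries, which share depth and scaling. They may be pieces or close copies, although their best matches in the broader NCBI protein set were 3 different proteins. The log2 differences were −0.999 (SE 0.72), −1.36 (SE 0.68) and −1.86 (SE 0.84), with adjusted p of 0.593, 0.440 and 0.400 in edgeR's quasi-likelihood test.

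Other MYB44 matches followed other courses. Contig_26750 had 2.87, 0.243 and 0.533 TMM-scaled RPKM in male libraries and 4.47, 5.46 and 1.11 in female libraries, so that it was high in the female library where the trio above was low, and its log2 difference was −1.66 (SE 0.93). Contig_16100 differed by 0.39 (SE 0.42) and contig_30863 by 0.44 (SE 0.44) on the log2 scale. Contig_37225 had 5.55, 2.72 and 1.55 in male libraries and 2.62, 2.36 and 0 in female libraries.

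Rice Myb4, known there for cold tolerance, was the match of 9 members, and 6 of them were tested. Contig_20150 had 0, 1.05 and 0.755 TMM-scaled RPKM in male replicates 1, 2 and 3, against 14.3, 3.74 and 0.730 in the female replicates. Contig_28843 had 0.0846, 1.69 and 0.393 in male libraries and 13.9, 0.896 and 1.06 in female libraries. Contig_20151 had 0, 0.914 and 1.17 in male libraries and 6.17, 0.612 and 0 in female libraries. Female replicate 1 was the highest of the 6 libraries for all 3 of them, and the other female libraries lay within the male range, except that female replicate 2 exceeded it for contig_20150. This contig had the lowest log2 difference of the tested members, −3.35 (SE 1.17), with an unadjusted p of 0.0216 and an adjusted p of 0.294 in edgeR's quasi-likelihood test. The log2 differences of contig_28843 and contig_20151 were −2.82 (SE 1.28) and −1.82 (SE 1.31), and that of contig_28843 was −0.36 without female replicate 1. Contig_51394 was the 1 tested Myb4 match whose groups did not overlap on this scale, though they did on the deposited RPKM, with 1.62, 4.33 and 2.76 TMM-scaled RPKM in male libraries, against 9.81, 4.50 and 5.94 in female libraries. Its log2 difference was −1.20 (SE 0.58), with an adjusted p of 0.424 in edgeR's quasi-likelihood test. Contig_51394 shares its best match in the broader NCBI set, a poplar protein, with contig_20151, so the pair may report 1 gene. Contig_24314 and contig_20539, also Myb4 matches, differed by 0.32 (SE 0.40) and 0.01 (SE 0.39) on the log2 scale.

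**Figure D3:**
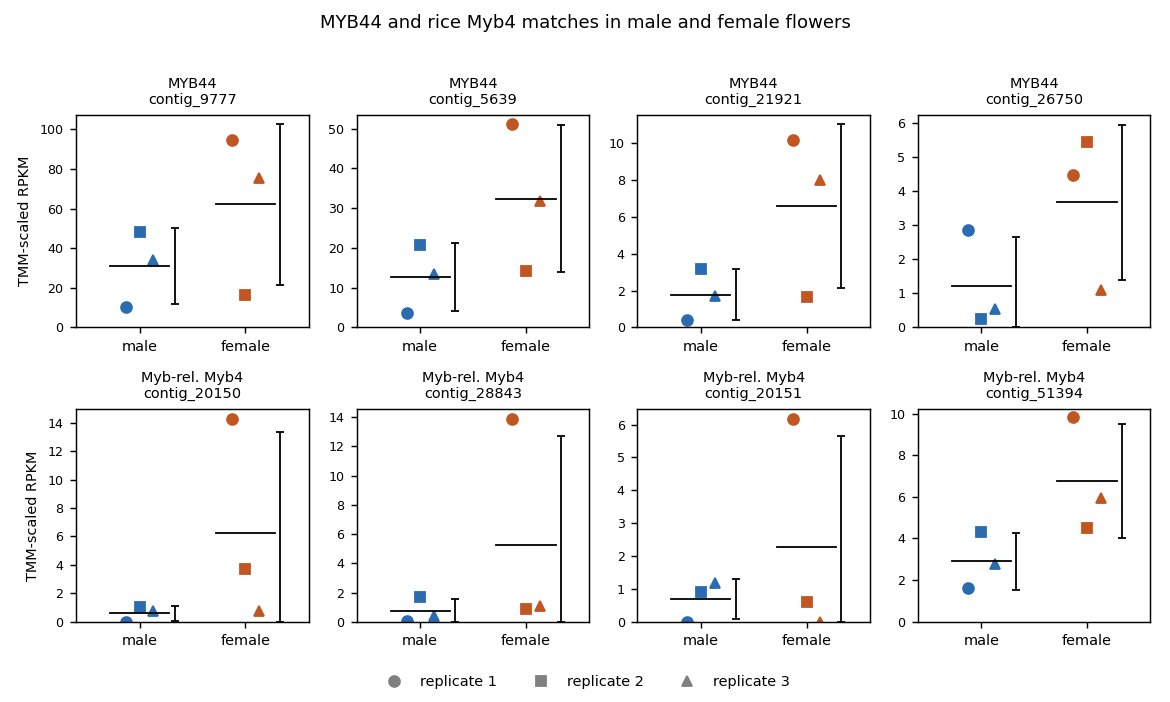
TMM-scaled RPKM of 4 MYB44 matches (top) and 4 rice Myb4 matches (bottom) in each library, male on the left, with mean, SD (n = 3, stopped at 0) and the replicate number as symbol. Contig_9777, contig_5639 and contig_21921 share a pattern with high female replicates 1 and 3, and contig_20150, contig_28843 and contig_20151 peak in female replicate 1.

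Activators of flavonoid and anthocyanin synthesis came to 8 members, 7 of them tested and none called by edgeR, limma or DESeq2 or at an unadjusted p under 0.05 in these tools. Their median log2 difference was −0.03, and it ran from −0.19 to 0.20 with a library left out. C1, which turns on anthocyanin genes in maize aleurone together with a bHLH partner, was the match of 3 of them. Contig_20472, the transcript of the printed primers, had 4.09, 35.6 and 12.3 TMM-scaled RPKM in male replicates 1, 2 and 3, against 37.1, 64.2 and 11.3 in the female replicates. Female replicate 3 fell among the male libraries and male replicate 2 close to female replicate 1, so the groups overlapped. The log2 difference was −1.12 (SE 0.82), with an adjusted p of 0.596 in edgeR's quasi-likelihood test. Contig_2255, named for Arabidopsis TT2, which switches on tannin synthesis in the seed coat, has the same castor bean protein as its best match as contig_20472 and lies outside the rule by its name. It had 5.42, 66.3 and 47.4 TMM-scaled RPKM in male libraries and 54.5, 105.8 and 25.2 in female libraries, with male replicate 1 lowest and female replicate 2 highest, as for contig_20472. Of the other C1 matches, contig_29572 differed by −1.22 (SE 0.73) and contig_23069 by 0.53 (SE 0.45) on the log2 scale.

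MYB12, a flavonol regulator in Arabidopsis, was the match of contig_40037, which had 2.52, 15.3 and 19.9 TMM-scaled RPKM in male libraries and 3.31, 2.81 and 15.8 in female libraries. Male replicate 1 lay with female replicates 1 and 2, and female replicate 3 with the other male libraries, and the log2 difference was 0.95 (SE 0.91). MYB5, which works beside TT2 in Arabidopsis seed coats although SwissProt names it a repressor, was the match of 3 members with log2 differences from −0.47 to 0.19.

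The bHLH and WD40 partners of MYB proteins with R2 and R3 repeats were listed separately, and 8 of 10 unigenes were tested. None passed the call in edgeR, although 5 had an unadjusted p under 0.05, each with the lower level in male flowers. DESeq2 called 3 of the list lower in male flowers and limma on log2(RPKM + 1) called none. With the replicate block edgeR called 1, contig_21951, a match of the bHLH protein MYC4, lower in male flowers (adjusted p = 0.0299, against 0.0591 with no block). With no filter on reads edgeR also called contig_21951 lower in male flowers (adjusted p = 0.0386). The log2 difference was below 0 for 8 of 8 with a median of −1.55. It was below 0 for 7 of 8 on library totals and with the block, and for 5 of 7 when female replicate 1 was left out. It was below 0 for 6 of 8 when female replicate 3 or male replicate 2 was left out and for 5 of 8 when male replicate 1 was. GLABRA 3, the bHLH partner in Arabidopsis trichomes and anthocyanin synthesis, was the match of 3 unigenes. Contig_9455 had 3.18, 2.56 and 2.97 TMM-scaled RPKM in male replicates 1, 2 and 3, against 14.7, 18.4 and 4.91 in the female replicates, with a log2 difference of −2.13 (SE 0.48) and an adjusted p of 0.1002 in edgeR's quasi-likelihood test. Contig_3975 had 20.1, 30.7 and 21.9 in male libraries and 82.6, 111 and 23.0 in female libraries. Contig_8322 had 8.33, 9.32 and 4.13 in male libraries and 30.7, 35.8 and 6.11 in female libraries. In all 3 female replicates 1 and 2 stood well above the male libraries and female replicate 3 lay near them. Without female replicate 3, contig_9455 and contig_3975 were called lower in male flowers, while the green tissue markers lay higher there, and the part of these markers was not tested. The WD40 partner TTG1 (contig_6442) had 13.4, 16.3 and 41.4 TMM-scaled RPKM in male libraries and 9.66, 11.6 and 65.5 in female libraries, with no separation of the sexes. Flavonoid enzymes, the known targets of such complexes, numbered 42 unigenes with 35 tested, 1 called higher and 0 called lower in male flowers by edgeR's quasi-likelihood test (4 and 0 by DESeq2), and a median log2 difference of 0.01 that ran from −0.094 to 0.26 with a library left out.

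**Figure D4:**
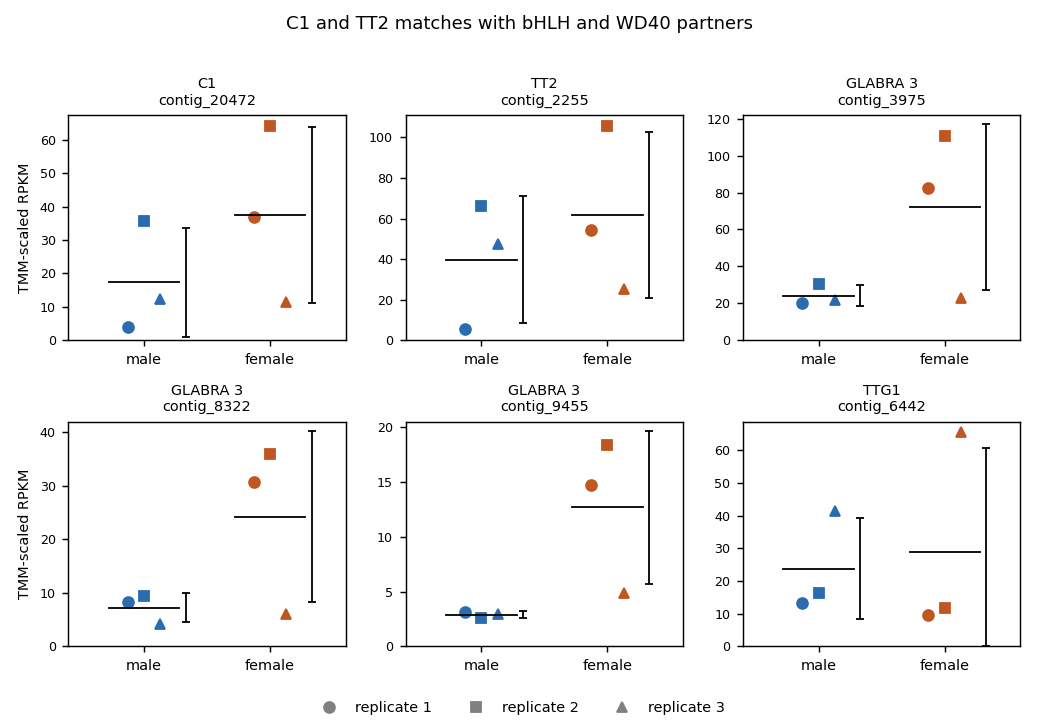
TMM-scaled RPKM of the C1 match contig_20472, the TT2 match contig_2255, 3 GLABRA 3 matches and the TTG1 match in each library, male on the left, with mean, SD (n = 3, stopped at 0) and the replicate number as symbol. Female replicates 1 and 2 lie above all male libraries for the 3 GLABRA 3 matches, and female replicate 3 lies near the male range.

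The repressors of phenylpropanoid synthesis (subgroup 4 of the R2R3 proteins) counted 10 members, 9 of them tested and none called by edgeR, limma or DESeq2, with 0 at an unadjusted p under 0.05 in edgeR and 1 in DESeq2. Of these, 8 had a log2 difference above 0 with a class median of 0.44 that ran from 0.21 when female replicate 1 was left out to 0.77 when male replicate 1 was, but on library totals the median was −0.037 and only 4 of 9 lay above 0, although 8 of 9 still lay above the median of all unigenes. Myb-related protein 308 of snapdragon, which lowers phenolic acid and lignin synthesis when overproduced in tobacco, was the match of 5 tested members, all above 0, or 4 of 5 on library totals. Contig_14318 had 7.43, 36.0 and 38.4 TMM-scaled RPKM in male replicates 1, 2 and 3, against 5.75, 10.6 and 15.6 in the female replicates. Contig_12577 had 7.99, 43.2 and 26.0 in male libraries and 12.6, 13.9 and 16.9 in female libraries. Male replicates 2 and 3 exceeded every female library in both, and male replicate 1 fell within or below the female range. The log2 differences were 1.40 (SE 0.65) and 0.85 (SE 0.56), with adjusted p of 0.410 and 0.558 in edgeR's quasi-likelihood test. Contig_28686, contig_16159 and contig_29883 differed by 0.67 (SE 0.67), 0.44 (SE 0.47) and 0.33 (SE 0.63). Contig_16160, a match of the repressor MYB6, had 10.9, 25.0 and 14.9 TMM-scaled RPKM in male libraries and 12.1, 19.9 and 17.9 in female libraries, and its log2 difference was 0.03 (SE 0.41). Enzymes of the phenylpropanoid and monolignol pathway numbered 65 unigenes, with 55 tested, 1 called higher and 0 called lower in male flowers by edgeR's quasi-likelihood test (2 and 0 by DESeq2), and a median log2 difference of 0.21, or 0.38 without female replicate 3.

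The secondary wall class held 5 members, 2 of them tested. Contig_17512, a match of MYB86, had 6.35, 3.55 and 3.72 TMM-scaled RPKM in male libraries and 3.76, 6.46 and 1.84 in female libraries, with a log2 difference of 0.14 (SE 0.50). Contig_33469, a match of MYB46, a master switch of secondary wall thickening in Arabidopsis, stayed between 0.422 and 0.974 in all 6 libraries.

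Myb-related protein 3R-1 of Arabidopsis carries an additional repeat and activates mitotic cyclins at the end of the G2 phase. Both of its matches were tested. Contig_2614 had 6.07, 19.6 and 27.7 TMM-scaled RPKM in male replicates 1, 2 and 3, against 15.4, 13.4 and 10.7 in the female replicates, with male replicate 1 lowest of all and the other male libraries above the female ones. Its log2 difference was 0.44 (SE 0.53). Contig_20616 differed by 0.59 (SE 0.37), or by −0.014 on library totals. Its best match in the broader NCBI protein set was a putative myb3r3 of castor bean, so the role of 3R-1 may not be its own. The mitotic cyclins and the cytokinesis syntaxin KNOLLE gave 18 tested unigenes of 19, none called and none with an unadjusted p under 0.05 in edgeR, limma or DESeq2. Of these, 16 had a log2 difference below 0, with a median of −0.69. The median was −0.16 with 12 of 18 below 0 when female replicate 1 was left out, −0.31 when male replicate 2 or 3 was, −1.25 when male replicate 1 was, and −1.45 on library totals.

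MYB82, a trichome regulator of Arabidopsis, was the match of contig_27197. It had 1.44, 0.217 and 0.201 TMM-scaled RPKM in male replicates 1, 2 and 3, against 2.11, 3.69 and 1.36 in the female replicates. Only male replicate 1 reached the female range, just above female replicate 3. The log2 difference was −2.04 (SE 0.85), with an unadjusted p of 0.0429 and an adjusted p of 0.362 in edgeR's quasi-likelihood test. Contig_5124, a match of the moss protein Pp1, had 10.6, 14.6 and 14.7 in male libraries and 6.502, 9.92 and 12.9 in female libraries on the same scale, with a log2 difference of 0.46 (SE 0.35). Contig_21906, a match of MYB39, a suberin regulator in Arabidopsis, had 0.328, 2.02 and 2.23 in male libraries and 6.01, 1.62 and 6.53 in female libraries. Its log2 difference was −1.57 (SE 0.79), with female replicate 2 again inside the male range.

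**Figure D5:**
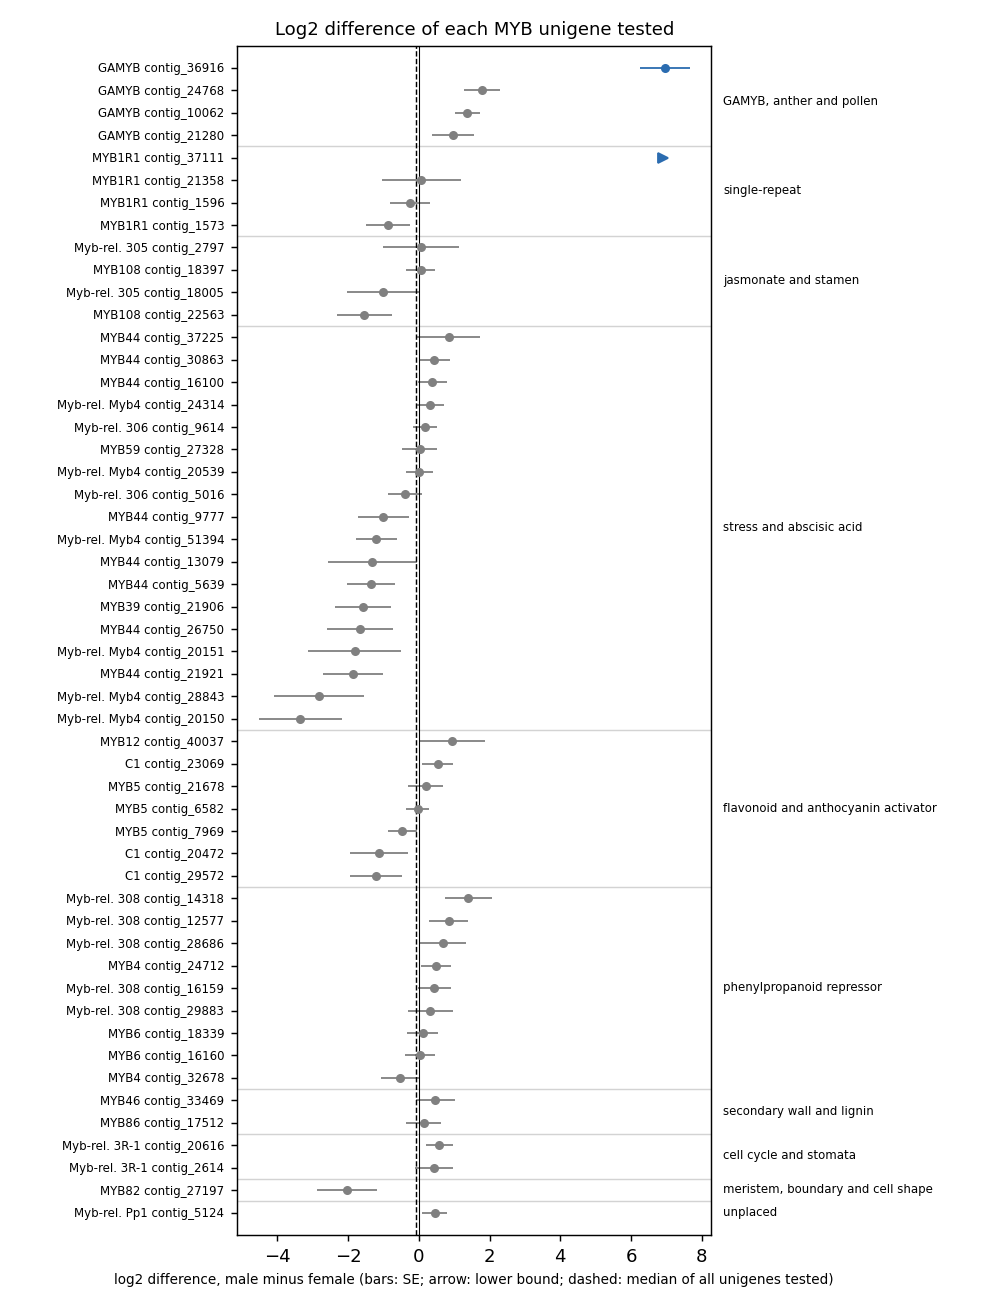
Log2 difference (male minus female) of the 52 tested MYB unigenes, grouped by role, with SE bars; blue marks the 2 called members, the arrow is the lower bound of contig_37111 (no female read), and the dashed line is the median of all tested unigenes (−0.09). All 4 GAMYB matches lie right of 0, and the lowest member is contig_20150 at −3.35.

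The 18 members that were not tested had 11 to 289 reads over all 6 libraries and a mean level of at most 1.02 TMM-scaled RPKM. Their mean level was lower in male flowers for 14 of them and higher for 4. For 3 every male library lay below every female library, or for 1 on the deposited RPKM. The shares over all untested unigenes were not computed, so these counts cannot be read as particular to the members. Contig_55342, a match of MYB34, an indole glucosinolate regulator in Arabidopsis, had 0 reads in male and 40 in female libraries. Contig_54856, a match of rice Myb4, had 0 reads in male and 79 in female libraries, nearly all of them in female replicate 1. Its best match in the broader NCBI protein set was instead a putative MYB21 of cacao. Contig_44268, a match of MYB28, which controls aliphatic glucosinolates in Arabidopsis, had 5 reads in male and 139 in female libraries. Female replicates 1 and 2 were the deepest libraries, so reads cannot be compared between the sexes without scaling. When all unigenes were tested with no filter, edgeR called none of these 18 members.

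Summed over the family, the level was 316, 605 and 516 TMM-scaled RPKM in male replicates 1, 2 and 3, against 527, 444 and 648 in the female replicates, so that neither sex stood above the other. MYB-domain unigenes whose names fall outside the rule, such as matches of DIVARICATA, CPC and TT2, numbered 50, with 45 tested, 0 called by edgeR's quasi-likelihood test, 6 higher and 5 lower in male flowers at an unadjusted p under 0.05, and a median log2 difference of 0.01. DESeq2 called 2 of these higher and 3 lower in male flowers.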

How the data were processed

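The authors cleaned and assembled Illumina reads of 6 libraries into unigenes without a reference genome, annotated them against SwissProt and the NCBI protein set, and deposited read counts and RPKM per unigene. Not given in the sources used here are the counting program and any use of strand. The deposited counts carry column names with an and gy, read as androecium (male) and gynoecium (female). RPKM recomputed from the deposited counts and lengths matched the deposited RPKM. The table also holds annotation text, and 7 of its lines, which name no unigene, were dropped.

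Counts were tested with edgeR 4.0.16 in R 4.3.3 (filterByExpr, TMM scaling, quasi-likelihood F test, Benjamini-Hochberg adjustment over all tested unigenes, prior count 0.125), male over female flowers, with sex as the only term. The study called differences at the same adjusted p and fold limits with a tool that ignores the spread between replicates. It reported MYB3 and MYB73, names taken from Arabidopsis, as up-regulated in female flowers, whereas no member was called higher in female flowers here. Alternatives were testing all unigenes, a filter on mean RPKM (1 or more), median-of-ratios scaling, library totals, DESeq2 1.42.0, limma 3.58.1 on log2(RPKM + 1) and log2(RPKM + 0.1), a replicate block, and leaving out each library. Overlap of the groups was also read from the deposited RPKM, an alternative chosen after seeing the data. The main script was checked on simulated counts. These had a common mean profile in all libraries apart from the unigenes made to differ, so the check does not cover the uneven composition described above. Summaries used pandas 2.3.3 and figures matplotlib 3.10.9. Total counts per library set the precision, which is lowest for female replicate 3.

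The methods state that both sexes came from the same plant, and deviations from the group means correlated for same-numbered male and female libraries at 0.19, 0.13 and 0.37, against −0.32 to 0.16 for other pairs. These ranges overlap, so the correlations cannot settle whether the numbers pair the libraries. The main test used no pairing, and the block was an alternative.

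Members were given roles by the name of the matched protein. Named members were those called, the 10 largest differences among members whose libraries did not overlap, the 10 with the highest mean RPKM, those in the study's transcription factor or primer lists, the most abundant of each role, and those sharing a SwissProt entry with a called member. These gave 22 members; the others named, and the partner and marker unigenes, were chosen after their values were seen, and so was the placing of Pp1 outside the roles. The members and all lists (partners, flavonoid and phenylpropanoid enzymes, mitotic cyclins, jasmonate, and markers of pollen, tapetum, stamen, carpel and green tissue) were chosen with earlier results of these data known.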

Additional observations from a re-analysis of the deposited data

How the results depend on the processing

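Contig_36916 was called in every setting and leave-out run, and the number of members called lower in male flowers was 0 throughout. Members called higher in male flowers numbered 2, against 4 in DESeq2, 1 in limma on log2(RPKM + 1) and 1 to 3 when a library was left out (1 without male replicate 3 or either of female replicates 1 and 2, 3 without female replicate 3). Members at an unadjusted p under 0.05 numbered 6, against 14 with no filter, 12 in DESeq2 and 3 in limma on log2(RPKM + 0.1). The shares over all unigenes in these alternatives were not computed. With a library left out the members numbered 4 to 17, and the count over all unigenes moved too. It was 17 of 56 members without female replicate 3, where 11036 of 37016 unigenes passed the same limit. Without male replicate 1 it was 12 of 56, beside 6978 of 36857 unigenes. Without male replicate 2 it was 10 of 54, beside 3475 of 34694, and without female replicate 2 it was 10 of 52, beside 2462 of 29691. Over all unigenes, calls higher in male flowers numbered 457, against 716 with no filter, 1098 in DESeq2 and 261 to 682 with a library left out (285 and 261 without female replicates 1 and 2), and calls lower in male flowers 42, against 86 with no filter, 657 in DESeq2, 17 and 18 in limma with a pseudocount of 1 and 0.1, and 6 to 292 with a library left out (6 without male replicate 2 or 3, 12 and 8 without female replicates 1 and 2, 292 without female replicate 3).

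With the replicate block, 2 members were called higher and 0 lower in male flowers, and 468 and 53 unigenes overall. The block changed no member's call, and among the partner proteins it added contig_21951 (adjusted p = 0.0299, edgeR). That unigene was also called by edgeR with no filter (adjusted p = 0.0386). It turned the log2 difference of contig_2797 to −0.86, contig_16160 to −0.018, contig_1596 to 0.056 and contig_21358 to −1.27.

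Other changes of sign concerned members that were never called. On library totals the log2 difference was −0.014 for contig_20616, −0.33 for contig_29883, −0.18 for contig_16160, −0.53 for contig_17512 and −0.19 for contig_21358. In limma on log2(RPKM + 1) it was −0.75 for contig_2797, −0.056 for contig_16160, 0.032 for contig_1596 and −0.65 for contig_21358, and in limma on log2(RPKM + 0.1) it was −1.17, −0.046, 0.033 and −1.13 for the same members in that order. With a library left out it ran from −0.33 to 0.75 for contig_2797, −0.27 to 0.40 for contig_16160, −0.038 to 0.64 for contig_17512, −2.58 to 0.73 for contig_21358, −0.60 to 0.83 for contig_1596 and −1.24 to 0.23 for contig_1573. The cause of these changes was not tested. Female replicate 3 limits the precision most, and the 18 members left untested by the filter hold few reads.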
